A study of Oryza sativa with 18 samples.

Results

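The genes described here encode the enzymes that carry ubiquitin to its targets and those that take it off again. They are the genes of the deposited expression table whose description names a ubiquitin-conjugating enzyme or a ubiquitin carboxyl-terminal hydrolase. The rule found 60 of the 38663 genes in the table. By the wording of the description, 28 are ubiquitin-conjugating enzymes (E2), 4 are E2 variants and 28 are deubiquitinases. The study profiled N6-methyladenosine (m6A), a methyl mark on adenosines of mRNA, in field-grown rice of the Nipponbare genotype, and the labels name no treatment. It has 3 groups, each with 3 m6A immunoprecipitates (IP) and 3 input libraries. The flowering panicle (FS) was collected on 14 August 2019, the booting panicle (BS) on 3 August 2019, and the flag leaf (Leaf) at the flowering stage with no day labelled, all at about 3 PM. The panicle stages were sampled on different days, so effects of day and stage cannot be told apart. Nothing in the labels says that replicates came from separate plants, so p-values measure the spread between these samples, which may be technical. RNA levels are FPKM of the 9 input libraries, that is, fragments scaled to transcript length and library size.

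Ubiquitin is a small protein that is joined to other proteins to mark them, most often for destruction by the proteasome. An activating enzyme (E1) charges ubiquitin and hands it to a cysteine of an E2, and an E3 ligase brings the charged E2 to the target. E2 variants keep the E2 fold but lack the catalytic cysteine, and act as partners of an active E2 in building chains of one linkage. Deubiquitinases cut ubiquitin from targets, trim chains and mature the ubiquitin precursors, which are made as fusion proteins. In plants the mark steers hormone signalling, the cell cycle and the turnover of proteins as organs mature. In plant mRNA, m6A is known to lie mostly near the stop codon and in the 3′ UTR.

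The 9 input libraries had FPKM sums of 504583 to 569592, and 17321 to 21464 genes reached 1 FPKM. Replicates correlated at 0.9928 to 0.9967 on the log2 scale. The summed levels of genes that mark tissues followed the labels. These genes were chosen with earlier results of these data known, so they are no separate check of the labels. The summed FPKM of 4 photosynthesis genes was 2469 to 2855 in the flowering panicle, 106 to 149.9 in the booting panicle and 19218 to 19655 in the flag leaf. Of these 4, the photosystem II 22 kDa protein (LOC_Os04g59440) ran against the label, at 311 to 419.8 FPKM in the flowering panicle, 7.13 to 8.56 FPKM in the booting panicle and 73.6 to 98.1 FPKM in the flag leaf. The sum of 4 floral MADS genes was 1071 to 1155 in the flowering panicle, 676 to 696 in the booting panicle and 4.9995 to 7.67 in the flag leaf. The sum of 5 pollen genes was 7266 to 8737 in the flowering panicle, 17.0 to 20.7 in the booting panicle and 11.95 to 27.2 in the flag leaf. The sum of 3 genes of tapetum and pollen wall synthesis was 1.93 to 2.30 in the flowering panicle, 525 to 1136 in the booting panicle and 0.581 to 1.43 in the flag leaf. None of the 16 marker genes was listed at 0 in a library. In bulk samples such as these, fewer cells of a type and less RNA per cell cannot be told apart.

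Most of the enzymes were expressed throughout. Averaged over the 9 libraries, 56 of the 60 genes reached 1 FPKM, 43 reached 10 FPKM and 8 reached 100 FPKM. The remaining 4 had means under 1 FPKM. They were LOC_Os01g48580, LOC_Os02g48950 and LOC_Os05g06120, described as putative E2s, and LOC_Os01g49440, described as hydrolase 51. The 10 most abundant genes made up 62.3% of the summed mean FPKM of all 60. Of these 10, 6 were E2s, 3 were E2 variants and 1 was a deubiquitinase. FPKM is scaled to transcript length, so these levels were set side by side. How reads were divided between transcripts and between near-identical copies was not tested, which limits such comparisons. The deposited enzyme annotation does not always go with the description that chose the genes. Hydrolase 6 (LOC_Os01g36930) carries the enzyme number of enolase and hydrolase 14 (LOC_Os01g08200) that of cathepsin L. LOC_Os06g08530 (hydrolase 23) has another KEGG entry than its namesake LOC_Os02g55180, whose entry is that of a ubiquitin hydrolase. All 4 E2 variants carry the enzyme number given to E2s such as E2 5A (LOC_Os01g46926). Which annotation holds was not tested.

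The most abundant gene was LOC_Os04g57220, an E2-17 kDa, the family that works with many different E3 ligases. It lies at chr4:34087746-34090681 on the minus strand, by the positions of the deposited table, whose genome build is not given in the sources used here. Its level was 579, 602 and 207 FPKM in the 3 flowering panicle libraries, 162, 176 and 421 FPKM in the booting panicle and 168, 509 and 223 FPKM in the flag leaf. Within each group the highest library was at more than 2 times the lowest, and all groups overlapped. Its coefficient of variation between replicates was 48.0% in the flowering panicle, 57.6% in the booting panicle and 61.1% in the flag leaf. The median over the 56 tested genes was 6.92% in the flowering panicle, 5.14% in the booting panicle and 4.71% in the flag leaf. In the flowering over the booting panicle its log2 change was 0.86 (SE 0.53), with a 95% interval of -0.34 to 2.06. Without flowering panicle replicate 3 the change was 1.36 and passed the threshold used for all genes. The table lists 4 transcripts for this gene, and how the authors' quantification divided reads between them was not tested.

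The second most abundant gene, LOC_Os01g46926 (E2 5A, chr1:26781039-26784541, minus strand), was steady. It had 399, 339 and 322 FPKM in the flowering panicle, 353, 329.9 and 352 FPKM in the booting panicle and 292, 291 and 316 FPKM in the flag leaf. Its largest log2 change in any comparison was 0.23. The third, LOC_Os03g57790, is also described as an E2-17 kDa but has another deposited KEGG entry than LOC_Os04g57220. It had 282, 244 and 261 FPKM in the flowering panicle, 125, 141 and 151 FPKM in the booting panicle and 211, 239 and 229 FPKM in the flag leaf. The booting panicle was below both other groups in every library, by a log2 change of 0.91 (SE 0.09) for the flowering over the booting panicle and of -0.70 (SE 0.09) for the booting panicle over the flag leaf. Both changes had small adjusted p-values (limma, 9.01e-06 and 4.51e-05) but stayed under the log2 change of 1 that a call required.

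**Figure D1:**
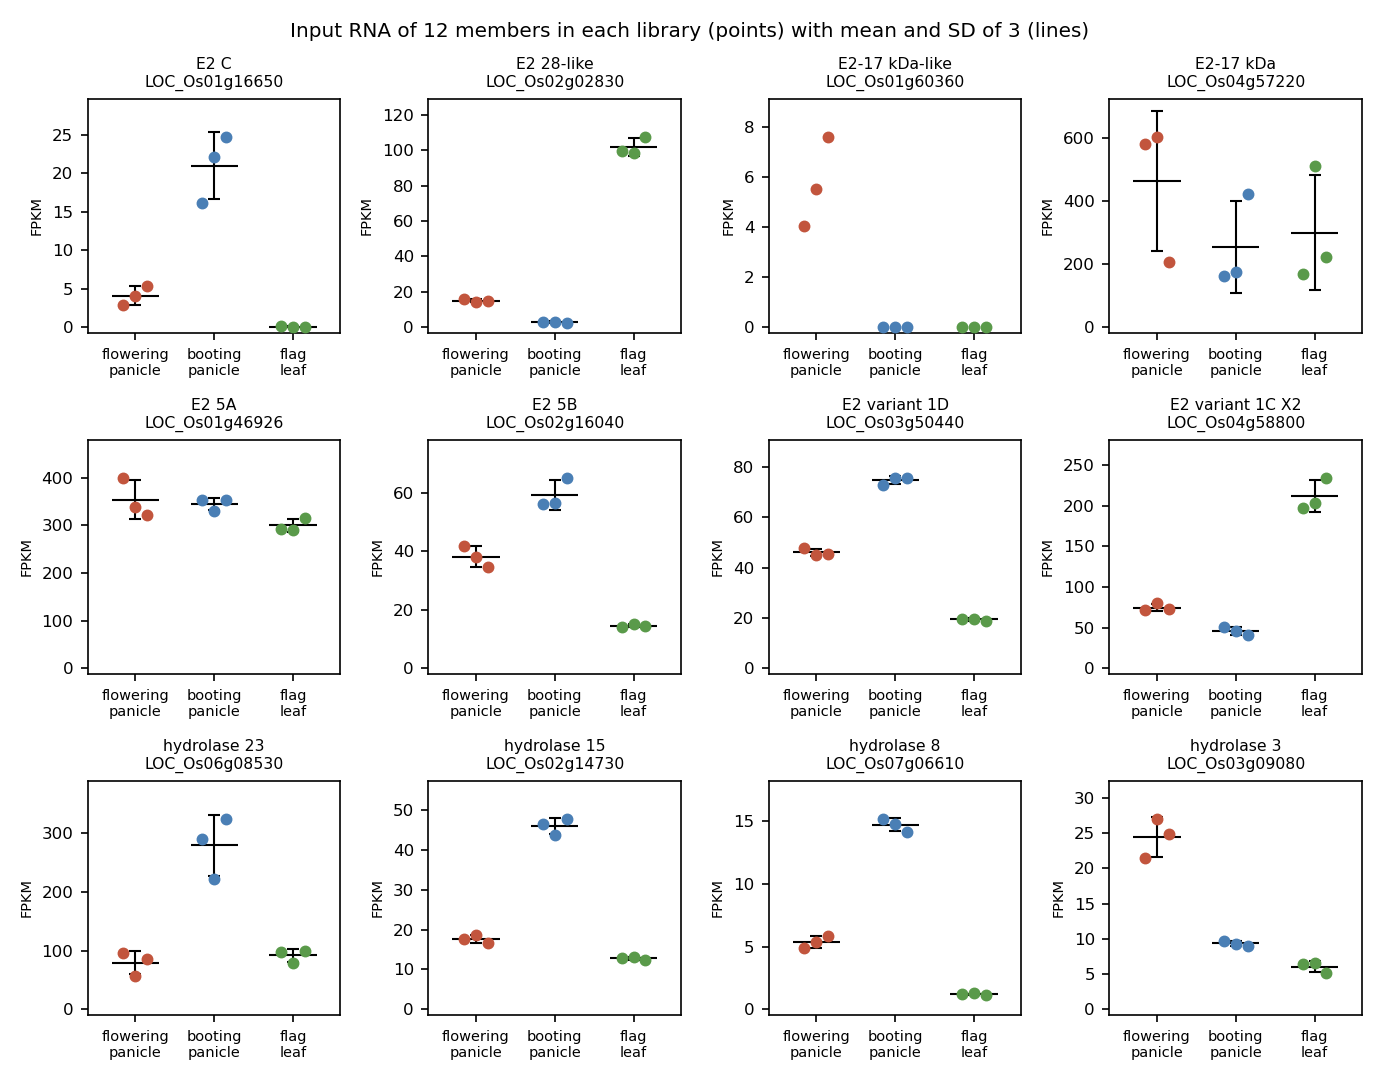
FPKM (vertical axes, each from 0) of 12 genes in the 3 libraries of the flowering panicle, the booting panicle and the flag leaf; points are libraries, the long line is the mean and the bar its SD (n = 3), drawn for all but LOC_Os01g60360, which is listed at 0 in 6 libraries. E2 C and hydrolases 8, 15 and 23 stood highest in the booting panicle, E2 28-like and the E2 variant LOC_Os04g58800 in the flag leaf and hydrolase 3 in the flowering panicle, while LOC_Os04g57220 scattered within every group.

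Between panicle stages many of these genes differed by a small amount and few by a large one. An adjusted p under 0.05 alone was reached by 40 of the 56 genes tested, beside 78.1% of all genes. With a threshold on size as well, 4 were called higher and 5 were called lower in the flowering over the booting panicle. That is 7.14% and 8.93%, against 18.1% and 15.3% of all 23355 genes tested. A call required a limma adjusted p under 0.05 together with a change of 1 or more in log2(FPKM + 1), in either direction. Of the 25 tested E2s, 3 were called higher and 1 lower. Of the 27 tested deubiquitinases, 1 was called higher and 4 lower, and none of the 4 E2 variants was called. Without flowering panicle replicate 2, 2 genes were called higher, because LOC_Os01g60360 then failed the filter on low values (1 FPKM in at least 3 libraries) and LOC_Os12g44000 missed the threshold. LOC_Os01g60360 passed this filter through the flowering panicle alone and LOC_Os08g41540 through the booting panicle alone, so that they had to differ. Without such genes 3 were called higher and 4 lower of 54, or 5.56% and 7.41%, beside 15.7% and 12.9% of the 19175 other genes. The median log2 change was -0.01 in E2s and -0.28 in deubiquitinases, beside -0.09 over all genes tested. With equal library sums the median over all genes was -0.21, and the median of deubiquitinases was -0.42. Tapetum genes were high in the booting panicle and pollen genes in the flowering panicle, as given above, and their part in these changes was not tested.

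E2 C, LOC_Os01g16650 (chr1:9445679-9446566, plus strand), was the E2 called lower. In animals E2 C is the partner of the anaphase-promoting complex, which marks mitotic cyclins for destruction. It had 2.94, 4.06 and 5.34 FPKM in the flowering panicle, against 16.2, 22.1 and 24.7 FPKM in the booting panicle. In the flag leaf it had 0.142 and 0.0377 FPKM in replicates 1 and 2, and replicate 3 was listed at 0. No library of one group reached the range of another. The log2 change was -2.11 (SE 0.19, limma adjusted p = 2.88e-06) for the flowering over the booting panicle. It was 2.25 (SE 0.19) for the flowering panicle over the flag leaf and 4.36 (SE 0.19) for the booting panicle over the flag leaf. With a pseudocount of 5 the change of the flowering panicle over the flag leaf was 0.84 and was no longer called.

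The E2 28-like gene LOC_Os02g02830 (chr2:1078475-1079652, plus strand) ran in the opposite order. It had 15.8, 14.2 and 14.8 FPKM in the flowering panicle, 3.23, 3.27 and 2.19 FPKM in the booting panicle and 99.7, 98.2 and 107 FPKM in the flag leaf. The 3 groups did not overlap, and the flag leaf was the highest in every library. The log2 change was 2.05 (SE 0.11, limma adjusted p = 6.36e-08) for the flowering over the booting panicle. Against the flag leaf it was -2.69 (SE 0.11) in the flowering panicle and -4.73 (SE 0.11) in the booting panicle, the largest decrease of any of the 56 genes in either comparison. The summed photosynthesis genes had the same order of groups, as did 3 of the 4 taken singly, and their part in this was not tested.

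The E2-17 kDa-like gene LOC_Os01g60360 (chr1:34917682-34919409, plus strand) had FPKM above 0 only in the input libraries of the flowering panicle. It had 4.04, 5.51 and 7.60 FPKM in the flowering panicle and was listed at 0 in all 3 booting panicle and all 3 flag leaf libraries. It counts among the genes called higher in the flowering panicle in both comparisons. It entered the test only through the group where it is high, so this call carries no weight of its own, and no fold is given against a group listed at 0. The summed pollen genes were also high in the flowering panicle alone, and their part in this was not tested. The third E2 called higher at flowering was LOC_Os12g44000, an E2 family protein with the same deposited KEGG entry as E2 18. It had 36.7, 47.0 and 39.0 FPKM in the flowering panicle, against 21.1, 19.8 and 17.97 FPKM in the booting panicle. The groups did not overlap, but the log2 change of 1.02 (SE 0.09) lay at the threshold. It was 0.92 without flowering panicle replicate 2, 0.96 without booting panicle replicate 3, 0.88 with equal library sums and 0.89 with a pseudocount of 5, and was not called in these 4 settings.

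The deubiquitinases with the clearest stage difference were highest in the booting panicle. LOC_Os06g08530 (hydrolase 23, chr6:4213119-4218603, minus strand), the most abundant deubiquitinase, had 95.2, 57.5 and 84.96 FPKM in the flowering panicle, against 290.4, 223 and 324 FPKM in the booting panicle. The flag leaf had 97.2, 79.1 and 98.6 FPKM and overlapped the flowering panicle, while every booting panicle library stood above both. The log2 change was -1.82 (SE 0.19, limma adjusted p = 1.14e-05) for the flowering over the booting panicle and 1.59 (SE 0.19) for the booting panicle over the flag leaf. LOC_Os02g14730 (hydrolase 15, chr2:8135361-8143469, plus strand) is known in rice, as OsUBP15, for a role in grain size. It had 17.7, 18.6 and 16.7 FPKM in the flowering panicle, against 46.5, 43.7 and 47.7 FPKM in the booting panicle. The flag leaf had 12.9, 13.2 and 12.3 FPKM, so that the 3 groups did not overlap. Its log2 change was -1.33 (SE 0.06, limma adjusted p = 2.97e-08) for the flowering over the booting panicle and 1.77 (SE 0.06) for the booting panicle over the flag leaf.

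The other deubiquitinases that fell at flowering were less abundant. LOC_Os07g06610 (hydrolase 8, chr7:3207122-3214059, plus strand) had 4.89, 5.36 and 5.81 FPKM in the flowering panicle, against 15.2, 14.8 and 14.1 FPKM in the booting panicle. The flag leaf had 1.2002, 1.26 and 1.17 FPKM, and the 3 groups did not overlap. Its log2 change was -1.31 (SE 0.08) for the flowering over the booting panicle and 2.83 (SE 0.08) for the booting panicle over the flag leaf. LOC_Os08g41540 (hydrolase 2-like), below the 5 FPKM required of named genes and named after its values were seen, had 0.789, 1.30 and 1.49 FPKM in the flowering panicle, against 4.64, 4.56 and 5.58 FPKM in the booting panicle. In the flag leaf it had 0.132, 0.0943 and 0.0370 FPKM, again with no overlap. Its log2 change was -1.44 (SE 0.13) for the flowering over the booting panicle, with the limit that it passed the filter through the booting panicle alone. With a pseudocount of 5 both genes kept their direction but missed the threshold, at -0.93 for hydrolase 8 and -0.68 for hydrolase 2-like.

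A single deubiquitinase was called higher at flowering. LOC_Os03g09080 (hydrolase 3, chr3:4715096-4719275, minus strand) had 21.4, 27.0 and 24.9 FPKM in the flowering panicle, 9.67, 9.32 and 9.03 FPKM in the booting panicle and 6.44, 6.51 and 5.20 FPKM in the flag leaf. The groups did not overlap. Its log2 change was 1.29 (SE 0.10, limma adjusted p = 1.16e-06) for the flowering over the booting panicle and 1.85 (SE 0.10, limma adjusted p = 5.51e-08) for the flowering panicle over the flag leaf.

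Against the flag leaf, the genes called were mostly higher in panicles, as were genes at large. In the flowering panicle 11 of the 56 tested genes were called higher and 2 lower than in the flag leaf. That is 19.6% and 3.57%, against 31.0% and 11.5% of all genes tested. In the booting panicle 20 were called higher and 2 lower, or 35.7% and 3.57%, against 36.4% and 17.7% of all genes. The called genes include LOC_Os01g60360 in the flowering and LOC_Os08g41540 in the booting panicle, which passed the filter through that group alone. Without such genes 10 of 54 were called higher in the flowering panicle, or 18.5%, beside 30.3% of the 19175 other genes. In the booting panicle 19 were, or 35.2%, beside 36.3%. In each, 2 were called lower (3.7%), beside 10.8% and 17.8%. These 2 comparisons share the flag leaf libraries. The genes called lower were the same in both, LOC_Os02g02830 and the E2 variant LOC_Os04g58800, and no deubiquitinase was called lower in either. The median log2 change was 0.47 for the flowering panicle over the flag leaf and 0.60 for the booting panicle over the flag leaf, beside 0.44 and 0.51 over all genes tested. Quantile normalization, which gives all libraries the same distribution, moved the medians of all genes to -0.05 and 0.04. With it, 4 genes were called higher and 2 lower in the flowering panicle over the flag leaf, and 10 higher and 3 lower in the booting panicle over the flag leaf. Over all genes quantile normalization gave 4545 higher and 4591 lower for the flowering panicle over the flag leaf, where the deposited scale gave 7239 and 2691. For the booting panicle over the flag leaf it gave 6073 higher and 5585 lower, where the deposited scale gave 8492 and 4130. A pseudocount of 5 in place of 1, which shrinks changes of low genes, left 6 of these genes called higher in the flowering panicle over the flag leaf and 12 in the booting panicle over the flag leaf.

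By class, 5 E2s (20%), 5 deubiquitinases (18.5%) and 1 E2 variant were called higher in the flowering panicle over the flag leaf. In the booting panicle over the flag leaf, 9 E2s (36%), 9 deubiquitinases (33.3%) and 2 E2 variants were. Of all genes tested, 31.0% and 36.4% were called higher in these comparisons. With quantile normalization the counts by class were 2 E2s, 2 deubiquitinases and 0 E2 variants in the flowering panicle over the flag leaf. In the booting panicle over the flag leaf they were 3 E2s, 5 deubiquitinases and 2 E2 variants. On the deposited scale the E2s called in the flowering panicle include LOC_Os01g60360, and the deubiquitinases called in the booting panicle include LOC_Os08g41540. Each passed the filter through that group alone. LOC_Os04g46190, a deubiquitinase of the L3 isozyme type, which in animals frees small adducts from the end of ubiquitin, had 21.1, 26.6 and 28.3 FPKM in the flowering panicle, 19.7, 21.2 and 20.6 FPKM in the booting panicle and 7.87, 7.47 and 7.97 FPKM in the flag leaf. The panicle groups overlapped and both stood above the leaf, with a log2 change of 1.57 (SE 0.10) in the flowering panicle and 1.30 (SE 0.10) in the booting panicle. LOC_Os02g16040 (E2 5B) had 41.7, 38.1 and 34.5 FPKM in the flowering panicle, 56.2, 56.5 and 65.0 FPKM in the booting panicle and 14.1, 15.2 and 14.5 FPKM in the flag leaf. Its groups did not overlap, and its log2 change against the leaf was 1.32 (SE 0.08) in the flowering panicle and 1.95 (SE 0.08) in the booting panicle. E2 5A, with the like name, had log2 changes of 0.23 or less.

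Other genes called higher in both panicle groups over the flag leaf had smaller changes. They were LOC_Os12g42600, a hydrolase family protein (log2 change 1.18 in the flowering and 1.17 in the booting panicle), LOC_Os05g48380, a putative E2 38 (1.11 and 1.27), and LOC_Os05g38550, an E2 7 (1.10 and 1.19). LOC_Os01g36930 is hydrolase 6, the form known in yeast and animals to sit on the proteasome. It had a log2 change of 1.30 (SE 0.07) in the booting panicle over the flag leaf and of 1.02 (SE 0.07) in the flowering panicle over the flag leaf. The change in the flowering panicle over the flag leaf was not called without flowering panicle replicate 1 (0.99), flowering panicle replicate 3 (0.998) or flag leaf replicate 2 (0.98). It also missed the threshold with equal library sums (0.94), with a pseudocount of 5 (0.93) and with quantile normalization (0.72). Among genes called in the booting panicle over the flag leaf, LOC_Os01g12950 (E2 25) had a log2 change of 1.36, LOC_Os12g41220 (E2 variant 1C) of 1.27 and LOC_Os02g43760 (L3 isozyme) of 1.21. LOC_Os03g19500 (E2 32), of the type known in Arabidopsis for the breakdown of proteins at the endoplasmic reticulum, changed by 1.10. Under quantile normalization, LOC_Os12g42600 and LOC_Os05g48380 lost both calls. In the flowering panicle over the flag leaf it also ended the calls of LOC_Os05g38550 (0.85), LOC_Os02g16040 (0.96), LOC_Os03g50440 (0.86) and LOC_Os07g06610 (0.75). In the booting panicle over the flag leaf it ended those of LOC_Os04g46190 (0.81), LOC_Os01g12950 (0.68), LOC_Os02g43760 (0.81) and LOC_Os03g19500 (0.86). A pseudocount of 5 ended both calls of LOC_Os12g42600 (0.84 in the flowering and 0.83 in the booting panicle). It also ended those of LOC_Os05g48380 (0.92) and LOC_Os07g06610 (0.74) in the flowering panicle over the flag leaf, and of LOC_Os01g12950 (0.67) and LOC_Os04g46190 (0.999) in the booting panicle over the flag leaf.

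**Figure D2:**
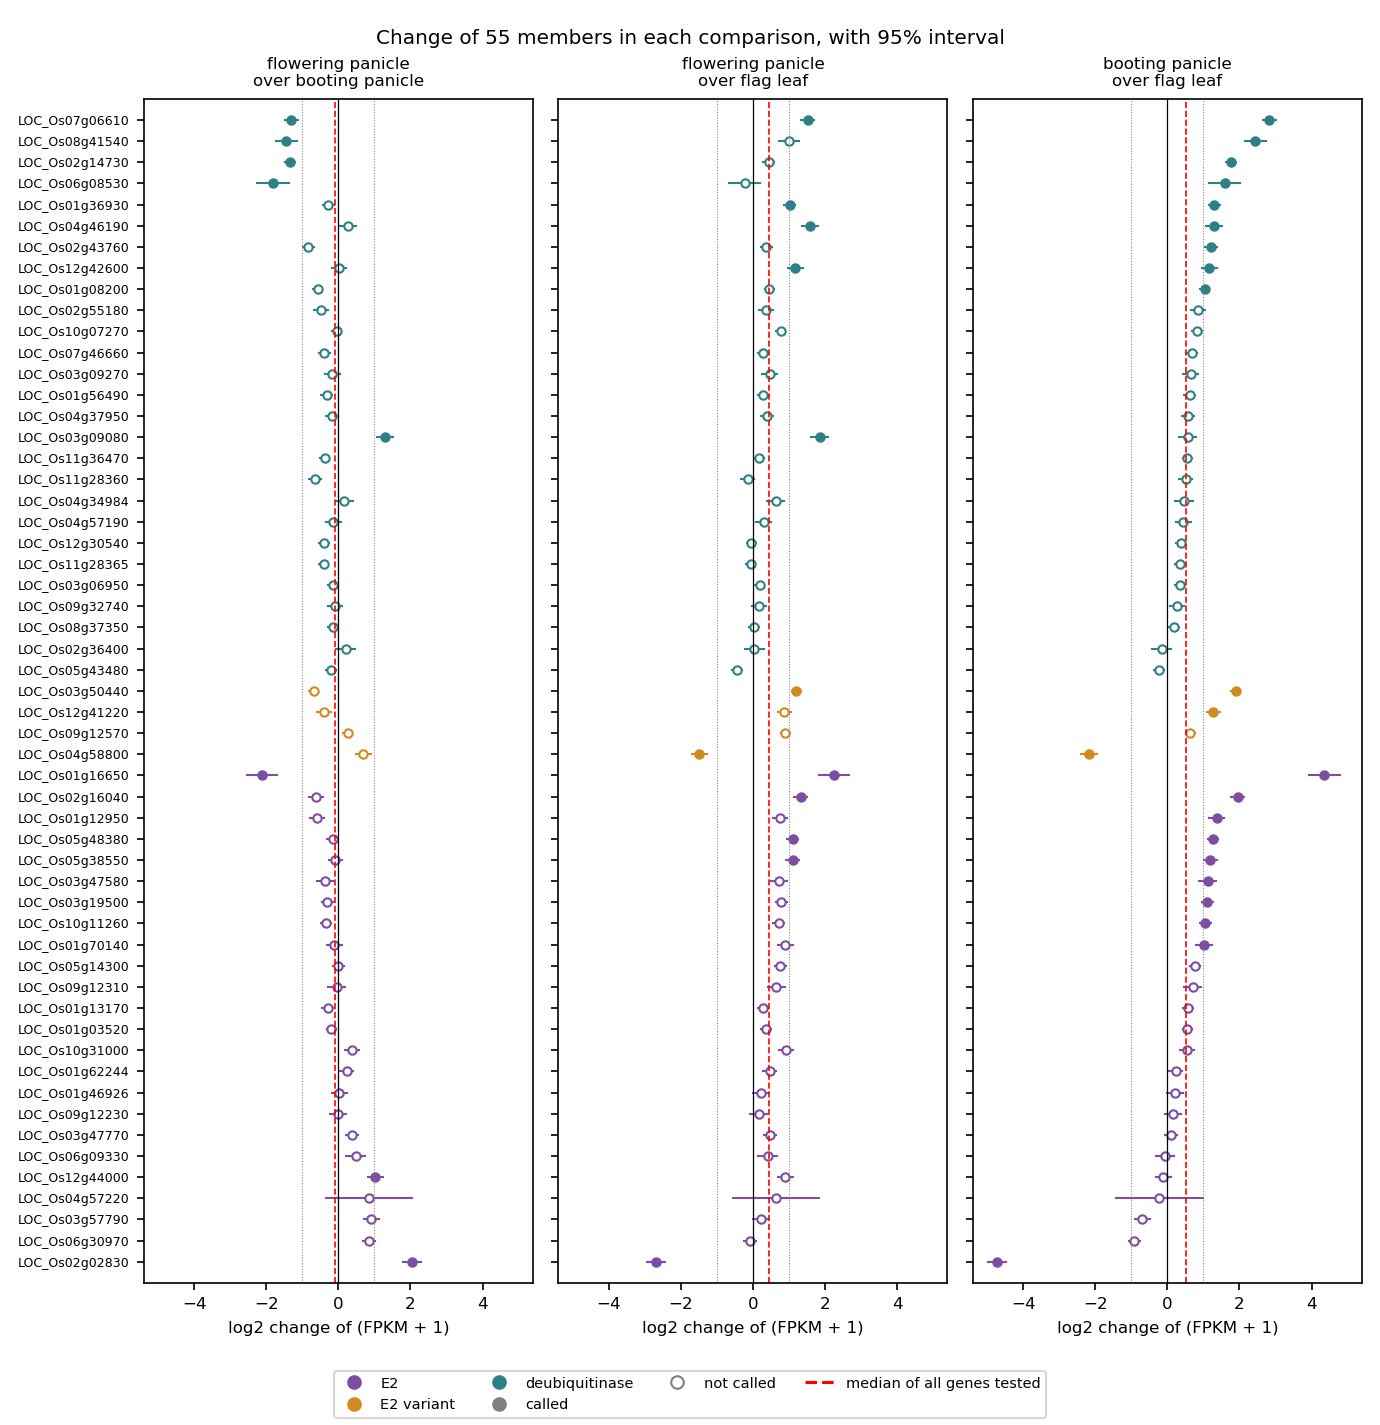
Log2 change of (FPKM + 1), with its 95% interval from limma, of the 55 tested genes other than LOC_Os01g60360 (rows, E2s below, E2 variants in the middle, deubiquitinases above) in the 3 comparisons; filled points were called, with an adjusted p under 0.05 and a change past the dotted lines at 1 and -1, and the dashed line is the median of all genes tested. In the flowering over the booting panicle, 22 of the 27 deubiquitinases lay to the left of 0, as did 14 of the 25 tested E2s. The median of all genes tested was also below 0 there, at -0.09, and the share of all genes below 0 was not counted. LOC_Os02g02830 and LOC_Os04g58800 lay far to the left in both comparisons with the flag leaf.

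The 4 E2 variants did not move together. LOC_Os04g58800 (variant 1C isoform X2, chr4:34975646-34977779, plus strand) had 71.5, 79.8 and 72.3 FPKM in the flowering panicle, 50.7, 46.0 and 41.3 FPKM in the booting panicle and 197, 203 and 234 FPKM in the flag leaf. Its groups did not overlap, with log2 changes against the leaf of -1.49 (SE 0.09, limma adjusted p = 1.61e-07) in the flowering panicle and -2.18 (SE 0.09, limma adjusted p = 5.34e-09) in the booting panicle. The other three ran the other way. LOC_Os03g50440 (variant 1D) had 47.7, 45.0 and 45.5 FPKM in the flowering panicle, 72.9, 75.6 and 75.6 FPKM in the booting panicle and 19.6, 19.7 and 18.9 FPKM in the flag leaf. Its log2 change against the leaf was 1.21 (SE 0.05) in the flowering panicle and 1.89 (SE 0.05) in the booting panicle. LOC_Os09g12570 and LOC_Os12g41220 are both described as variant 1C. LOC_Os09g12570 averaged 133 ± 1.16 FPKM in the flowering panicle, 111 ± 2.33 FPKM in the booting panicle and 70.9 ± 0.859 FPKM in the flag leaf (SD, n = 3 each). LOC_Os12g41220 averaged 101 ± 7.22 FPKM in the flowering panicle, 134 ± 12.5 FPKM in the booting panicle and 54.8 ± 1.42 FPKM in the flag leaf. LOC_Os09g12570 was highest at flowering and LOC_Os12g41220 at booting, with log2 changes between the stages of 0.26 and -0.40 that were not called.

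The summed FPKM of the 4 variants was 347 to 366 in the flowering panicle, 358 to 379 in the booting panicle and 342 to 379 in the flag leaf. These ranges overlapped. As a share of the summed FPKM of each library, which differs between libraries, they made up 0.0618 to 0.0642% in the flowering panicle, below the 0.0709 to 0.0732% of the booting panicle and the 0.0644 to 0.0712% of the flag leaf. Without LOC_Os04g58800 the sum was 275 to 286 in the flowering panicle, 307 to 337 in the booting panicle and 145 to 146 in the flag leaf, with no overlap in FPKM or in share. The summed FPKM of the deubiquitinases was 604 to 649 in the flowering panicle, 918 to 994 in the booting panicle and 488 to 510 in the flag leaf, with no overlap in FPKM or in share. Without hydrolase 23 (LOC_Os06g08530) it was 539 to 564 in the flowering panicle, 669.9 to 695 in the booting panicle and 409 to 411 in the flag leaf, so that the order was the same. The summed FPKM of the E2s was 1541 to 2010 in the flowering panicle, 1343 to 1662 in the booting panicle and 1232 to 1632 in the flag leaf, and these ranges overlapped. Without LOC_Os04g57220 the E2s summed to 1334 to 1431 in the flowering panicle, 1181 to 1241 in the booting panicle and 1064 to 1123 in the flag leaf, with no overlap. As a share of the library they made up 0.237 to 0.258% in the flowering panicle, 0.234 to 0.2398% in the booting panicle and 0.201 to 0.211% in the flag leaf, so that the panicle stages overlapped and the leaf lay below both. FPKM is a share of each library, so these sums are relative to all other transcripts.

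**Figure D3:**
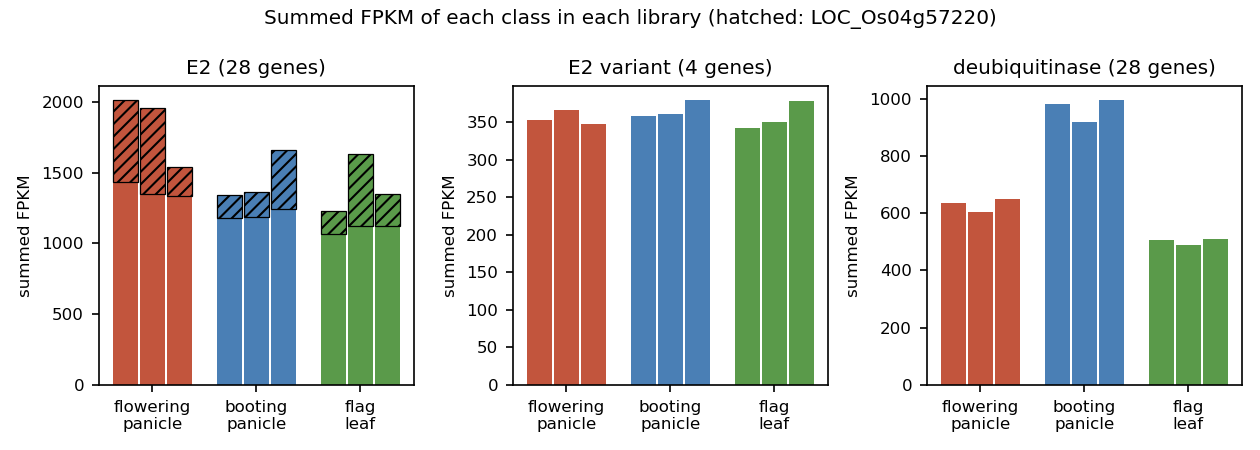
Summed FPKM (vertical axes, from 0) of the 28 E2s, 4 E2 variants and 28 deubiquitinases, with a bar for each of the 3 libraries of the flowering panicle, the booting panicle and the flag leaf; the hatched part of the E2 bars is LOC_Os04g57220. The deubiquitinases were highest in the booting panicle, the E2 variants summed to 342 to 379 in every library, and LOC_Os04g57220 set much of the spread between E2 libraries.

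The booting panicle was the group with the highest mean for 36 of the 56 tested genes (64.3%), beside 47.9% of all genes tested. The flowering panicle was highest for 16 (28.6%), beside 26.5% of all genes, and the flag leaf for 4 (7.14%), beside 25.6%. Of the 27 deubiquitinases, 21 were highest in the booting panicle. The flag leaf was highest for LOC_Os02g02830 and LOC_Os04g58800, already described, and for 2 further genes outside the call, chosen after their values were seen. LOC_Os05g43480 (hydrolase 25) averaged 22.3 ± 0.619 FPKM in the flowering panicle, 25.9 ± 1.99 FPKM in the booting panicle and 30.7 ± 0.0815 FPKM in the flag leaf. LOC_Os06g30970, an E2-17 kDa among the 10 most abundant, averaged 125 ± 8.49 FPKM in the flowering panicle, 69.1 ± 2.93 FPKM in the booting panicle and 131 ± 6.17 FPKM in the flag leaf. Its flowering panicle and flag leaf libraries overlapped, with a log2 change of only -0.07 (SE 0.07) between these groups. Its log2 change of -0.92 (SE 0.07) in the booting panicle over the flag leaf was called with quantile normalization (-1.08).

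The genes that moved least carry a range of roles. Among genes with a mean of at least 10 FPKM, LOC_Os09g12230 had the smallest change, at no more than 0.16 in any comparison. It has the lowest level of the 3 genes that share the description E2-17 kDa word for word. It averaged 14.0 ± 1.95 FPKM in the flowering panicle, 14.0 ± 0.285 FPKM in the booting panicle and 12.4 ± 1.30 FPKM in the flag leaf (SD, n = 3 each). It was followed, by the largest change in any comparison, by LOC_Os08g37350 (hydrolase 17) at 0.19, LOC_Os02g36400 (hydrolase 4) at 0.20, LOC_Os01g46926 (E2 5A) at 0.23 and LOC_Os03g06950 (a hydrolase family protein) at 0.34. LOC_Os12g30540 (hydrolase 12), LOC_Os11g28365 (hydrolase 5), LOC_Os05g43480 (hydrolase 25), LOC_Os01g62244 (E2 7) and LOC_Os03g47770 (E2 18) had largest changes of 0.41 to 0.47. These small values move with the scaling. With quantile normalization hydrolase 4 had a log2 change of -0.41 in the flowering panicle over the flag leaf, and E2 5A of -0.43 in the flowering over the booting panicle. Hydrolase 17 (LOC_Os08g37350) had 23.82, 23.9 and 24.4 FPKM in the flowering panicle, 27.5, 28.4 and 24.6 FPKM in the booting panicle and 23.79, 23.5 and 22.9 FPKM in the flag leaf. All 9 libraries lay between 22.9 and 28.4 FPKM, and the groups did not overlap but nearly met.

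Genes with the same description did not always share a pattern. The hydrolase 12 pair was alike: LOC_Os11g36470 averaged 37.1 ± 0.6004 FPKM in the flowering panicle, 48.6 ± 2.16 FPKM in the booting panicle and 32.7 ± 0.326 FPKM in the flag leaf. LOC_Os12g30540 averaged 49.0 ± 1.93 FPKM in the flowering panicle, 65.2 ± 2.78 FPKM in the booting panicle and 50.4 ± 1.23 FPKM in the flag leaf. Their log2 changes in the flowering over the booting panicle were -0.38 and -0.41. The hydrolase 23 pair differed in level and in size of change. LOC_Os02g55180 averaged 7.26 ± 0.559 FPKM in the flowering panicle, 10.5 ± 0.525 FPKM in the booting panicle and 5.41 ± 0.377 FPKM in the flag leaf. Its log2 change of -0.48 in the flowering over the booting panicle was smaller than the -1.82 of LOC_Os06g08530, and their 95% intervals of -0.67 to -0.30 and -2.25 to -1.38 did not overlap.

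The hydrolase family pair also parted. LOC_Os03g06950 had a log2 change of 0.19, which was not called, in the flowering panicle over the flag leaf, where LOC_Os12g42600 rose by 1.18. The E2 7 pair differed in level, with LOC_Os05g38550 at 146 ± 10.9 FPKM in the flowering panicle, 154 ± 3.33 FPKM in the booting panicle and 67.4 ± 5.33 FPKM in the flag leaf. LOC_Os01g62244 had 23.7 ± 2.79 FPKM in the flowering panicle, 19.9 ± 0.203 FPKM in the booting panicle and 16.8 ± 0.449 FPKM in the flag leaf. Of the 3 genes described as putative E2 38, LOC_Os05g48380 averaged 29.1, 32.7 and 12.99 FPKM in the flowering panicle, the booting panicle and the flag leaf. LOC_Os09g12310 averaged 1.64, 1.71 and 0.666 FPKM in the same groups, and LOC_Os01g48580 was listed at 0 in 7 of 9 libraries. Reads shared between near-identical copies can shift FPKM between them, and this was not tested.

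Most of these genes had an m6A peak, and nearly always in all organs. In the deposited peak lists, 1 per group with its replicates pooled, 48 of the 60 genes had a peak in the flowering panicle, 49 in the booting panicle and 47 in the flag leaf. They held 57, 58 and 56 peaks. Of the genes that averaged 1 FPKM or more in the group, 85.7% had a peak in the flowering panicle, 85.7% in the booting panicle and 90.4% in the flag leaf. Of all genes at that level, 66.8%, 68.9% and 75.9% did. The cut at 1 FPKM does not match these genes to all others for level above it. Among genes that averaged 10 FPKM or more in a group, 12.8% of these enzymes had no peak in any list, beside 20.5% of all genes. A peak in all 3 lists was held by 47 of the 49 genes with any peak (95.9%), beside 71.8% of all genes with any peak. These shares were not matched for RNA level. In all 47 at least 1 peak overlapped between the 3 lists by at least 1 base, and in 46 the overlap covered at least 50% of each peak. With 1 list per group there is no replicate error, so no test was made between groups or against other genes.

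Most peaks lay at the 3′ end. The authors classed 53 of 57 peaks as 3′ UTR in the flowering panicle, 52 of 58 in the booting panicle and 52 of 56 in the flag leaf. These are 93.0%, 89.7% and 92.9%, beside 78.5%, 79.7% and 79.2% of all peaks in the lists. Of the 3′ UTR peaks, 44 in the flowering panicle, 45 in the booting panicle and 43 in the flag leaf ended within 100 bases of the annotated end of the gene. In these lists 39, 43 and 42 ended at the annotated end itself. Whether the annotation set where they stop was not tested. The median centre of all 3′ UTR peaks was at 93.3% of the gene span in the flowering panicle, 93.0% in the booting panicle and 92.5% in the flag leaf, introns included. The lowest centre was at 33.8, 33.8 and 33.4% in the same lists. A 5′ UTR peak was listed for 4 genes in the flowering panicle, 5 in the booting panicle and 4 in the flag leaf. LOC_Os08g37350 (hydrolase 17), LOC_Os02g55180 and LOC_Os06g08530 (the hydrolase 23 pair) had both a 5′ and a 3′ UTR peak in every list. LOC_Os03g57790, the E2-17 kDa, had its one peak in the 5′ UTR in every list. The fifth in the booting panicle was a weak peak of LOC_Os06g09330 (E2 34), with a fold of 1.37.

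**Figure D4:**
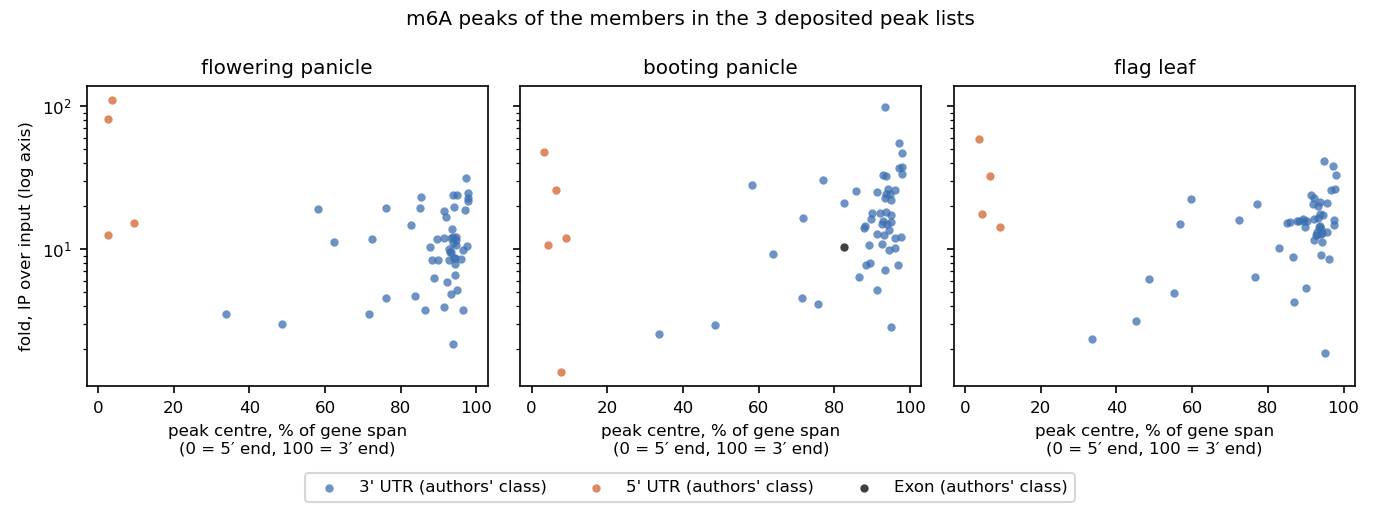
Position of each m6A peak of the 60 genes (horizontal axis, centre of the peak in percent of the gene span from 5′ to 3′ end, introns included) against the authors' fold of IP over input (vertical log axis) in the peak lists of the flowering panicle, the booting panicle and the flag leaf; colours are the authors' position classes. Most 3′ UTR peaks gather near the 3′ end, with median centres of 92.5 to 93.3%, and a few 5′ UTR peaks stand apart.

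The fold of IP over input is the authors' value for each peak and is set side by side within a list alone. Its median over the peaks of these genes was 11 in the flowering panicle, 15.2 in the booting panicle and 15.4 in the flag leaf, beside 8.10, 10.3 and 10.7 over all peaks. Taking the highest peak of each gene, the median fold was 18.5 in deubiquitinases and 11 in E2s in the flowering panicle. It was 24.6 in deubiquitinases and 15.7 in E2s in the booting panicle, and 16.8 in deubiquitinases and 15.2 in E2s in the flag leaf. The E2 variants had medians of 9.66 in the flowering panicle, 12.8 in the booting panicle and 15 in the flag leaf. The lowest fold of any variant was that of LOC_Os04g58800, at 2.16 in the flowering panicle, 2.86 in the booting panicle and 1.88 in the flag leaf.

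The highest folds belonged to few genes. The 5′ UTR peak of hydrolase 17 had a fold of 111 in the flowering panicle, where it spanned chr8:23600563-23601132. Its fold was 48.1 in the booting panicle and 59.1 in the flag leaf, above 97.6% of all peaks or more in each list. Its 3′ UTR peak had folds of 10.5, 12.1 and 15.9 in the same lists. By the authors' p-value the 3′ UTR peak was the stronger in the booting panicle and the flag leaf. The base-10 logarithm was -897 and -1130 there, against -381 and -340 for the 5′ UTR peak. In the flowering panicle it was -1020 for the 3′ UTR peak and listed as minus infinity for the 5′ UTR peak. The 5′ UTR peak of LOC_Os02g55180 (chr2:33797366-33797695 in the flowering panicle) had a fold of 80.8 in the flowering panicle, 25.7 in the booting panicle and 32.5 in the flag leaf. The 3′ UTR peak of LOC_Os02g55180 had lower folds, of 5.92, 10.9 and 16.3 in the same lists. The logarithm of the authors' p-value was -28.1, -25 and -11 for its 5′ UTR peak. It was -214, -285 and -224 for its 3′ UTR peak, which was the stronger by p-value in each list. LOC_Os06g08530, the partner of LOC_Os02g55180 by description, had 5′ UTR folds of 15.3, 11.9 and 14.2 and 3′ UTR folds of 23.7, 24.2 and 41.6. In LOC_Os06g08530 the 3′ peak thus had the higher fold in each list. The 3′ UTR peak of LOC_Os05g14300 (E2 26, chr5:8038931-8039677) spanned the same bases in all lists and had a fold of 98.5 in the booting panicle, above 99.8% of that list. In the flowering panicle its fold was 12, above 69.0% of the list, and in the flag leaf 20, above 82.4%. The base-10 logarithm of the authors' p-value differed less, at -759 in the flowering panicle, -942 in the booting panicle and -649 in the flag leaf. Each list pools its replicates, so the difference between lists was not tested. The FPKM of LOC_Os05g14300 was alike in the panicle groups: it averaged 18.5 ± 1.31 in the flowering panicle, 18.5 ± 0.256 in the booting panicle and 10.5 ± 0.432 in the flag leaf (SD, n = 3 each).

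**Figure D5:**
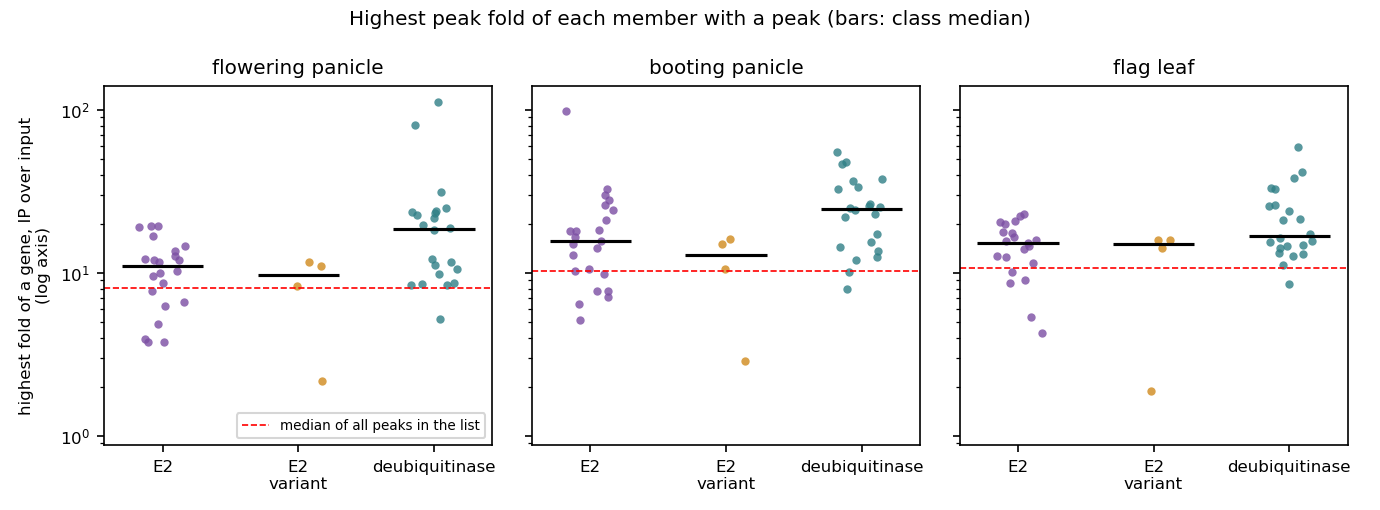
Highest fold of IP over input (vertical log axis) of each gene with a peak, by class, in the lists of the flowering panicle, the booting panicle and the flag leaf; bars are class medians and the dashed line the median of all peaks of that list. Deubiquitinases had the highest class median in each list, 18.5, 24.6 and 16.8.

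Most genes with a peak had only 1, here as over all genes. Peaks were counted by gene, so which transcript held each is not known. Of the genes with a peak, 16.7% had more than 1 in the flowering panicle, 16.3% in the booting panicle and 14.9% in the flag leaf, beside 12.96%, 12.6% and 13.2% of all genes with a peak. LOC_Os04g57190 (L3 isozyme, chr4:34073167-34077293, minus strand) had 3 peaks in every list, all classed as 3′ UTR, with centres at 62.3, 76.1 and 93.4% of its span in the flowering panicle. It was expressed at 5.09 ± 0.503 FPKM in the flowering panicle, 5.69 ± 0.333 FPKM in the booting panicle and 3.92 ± 0.286 FPKM in the flag leaf. LOC_Os01g12950 (E2 25) had 3 peaks in the flag leaf and 2 in each panicle list. The added peak covered 61 bases with a fold of 3.15, below the folds of 6.14 and 10.1 of its other peaks there. Both genes have 4 transcripts in the table.

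No peak was listed for 11 of the 60 genes. The 4 with means under 1 FPKM were among them, as was LOC_Os08g41540 at 4.93 FPKM or less. The other six reached 10 FPKM in a group, which 47 of the 60 genes did, so that 12.8% of genes at that level had no peak, beside 20.5% of all genes. They were E2 C (LOC_Os01g16650), E2 28-like (LOC_Os02g02830), hydrolase 15 (LOC_Os02g14730), both hydrolase family proteins (LOC_Os03g06950 and LOC_Os12g42600) and LOC_Os11g28360, described as hydrolase 5 and named after its values were seen. Hydrolase 15 averaged 46.0 ± 2.08 FPKM in the booting panicle and E2 28-like 102 ± 4.91 FPKM in the flag leaf. LOC_Os11g28360 ends 1045 bases before the start of LOC_Os11g28365 on the same strand, which is also described as hydrolase 5 and had a 3′ UTR peak in every list, with folds of 18.3, 24.9 and 23.8.

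Peaks in some lists and not in others were found for 2 genes of low level. LOC_Os09g12310 (putative E2 38) had a 3′ UTR peak in the flowering panicle, with a fold of 3.75, and in the booting panicle, with a fold of 7.70. It had none in the flag leaf, where its mean was 0.666 FPKM. LOC_Os01g60360 (E2-17 kDa-like) had a peak in the booting panicle list alone, at chr1:34918806-34919409, classed as exon, with a fold of 10.3 and a base-10 logarithm of the authors' p-value of -2.28. All 3 booting panicle inputs listed the gene at 0, and the flowering panicle, where it was read at 4.04 to 7.60 FPKM, had no peak for it. This single peak was the only one of these genes classed as exon.

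Other parts of the ubiquitin system were counted from lists of descriptions. Of 4 E1 and E1-like activating enzymes, none was called in the flowering over the booting panicle, and LOC_Os02g30310 (ubiquitin-like modifier-activating enzyme 5) was called higher than the flag leaf in both panicle groups. Its change of 1.001 in the flowering panicle over the flag leaf lay at the threshold. It was not called with equal library sums (0.92), quantile normalization (0.62) or a pseudocount of 5 (0.83), nor without flowering panicle replicate 3 (0.95) or flag leaf replicate 3 (0.95). Of 7 genes for ubiquitin precursors 4 were tested. Among them LOC_Os09g31031, a fusion of ubiquitin and ribosomal protein L40, averaged 5.89 ± 0.416 FPKM in the flowering panicle, 31.3 ± 4.30 FPKM in the booting panicle and 0.562 ± 0.0610 FPKM in the flag leaf. It was called lower in the flowering over the booting panicle (log2 change -2.22, SE 0.10). Of 13 other deubiquitinases of the OTU, Josephin and related families, 1 was called higher and 1 lower in the flowering over the booting panicle. That is 7.69% each way, beside 18.1% and 15.3% of all genes tested. The one called lower passed the filter through the booting panicle alone. The one called higher was LOC_Os01g67490, an OTU domain protein at 15.6 ± 2.01 FPKM in the flowering panicle, 2.47 ± 0.251 FPKM in the booting panicle and 12.97 ± 0.982 FPKM in the flag leaf.

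Of 19 tested SCF and cullin parts, subunits of the largest family of E3 ligases, 8 were called lower and none higher in the flowering over the booting panicle. Of the 19, 5 passed the filter through the booting panicle alone, and all of these are among the 8. Of the other 14, 3 were called lower, or 21.4%, beside 12.9% of the other genes. Cullin-1 (LOC_Os01g27160), the scaffold of the SCF ligase, averaged 4.25 ± 0.750 FPKM in the flowering panicle, against 18.8 ± 0.266 FPKM in the booting panicle. Of the 8, 7 are SKP1 or SKP1-like genes, adaptors that link the cullin to F-box proteins. By their identifiers 6 of these lie on chromosome 7, 5 of them between LOC_Os07g43180 and LOC_Os07g43270, and near-identical copies may share reads. Of 167 tested E3 ligases, 30 were called higher and 21 lower in the flowering over the booting panicle. That is 18% and 12.6%, beside 18.1% and 15.3% of all genes tested. Of 15 tested genes of ubiquitin-like systems, 2 were called higher and 2 lower, or 13.3% each way. They include LOC_Os09g15320 (NEDD8-conjugating enzyme Ubc12), called higher at 36.6 ± 4.10 FPKM in the flowering panicle, against 17.5 ± 0.929 FPKM in the booting panicle. Its log2 change of 1.02 (SE 0.10) lay at the threshold and was not called with equal library sums or a pseudocount of 5 (0.88 with either), without flowering panicle replicate 2 (0.94) or without booting panicle replicate 1 (0.99). The E2 M of the present set, LOC_Os10g11260, whose animal form carries NEDD8, did not pass the threshold in that comparison, at -0.34 (SE 0.07).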

How the data were processed

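RNA levels came from the 9 input libraries, 3 for each of 3 groups, and m6A peaks from 3 lists, 1 per group. The values the authors deposited per gene and library are FPKM, per the file headers. In each peak list the fold of IP over input and the p-value and FDR of a peak, as base-10 logarithms, are the authors' values, per the file headers. The submitters' processing notes name cutadapt, HISAT2, StringTie, HOMER and ChIPseeker, without version numbers. Which program called peaks, on which genome build and whether strand was used is not given in the sources used here. Each list pools the replicates of its group.

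The 60 genes were found by their deposited description. They and the other gene lists were chosen with earlier results of these data known. FPKM was tested as log2(FPKM + 1) with limma 3.58.1 in R 4.3.3, with a mean-variance trend, all 9 libraries in 1 fit and no replicate block. Genes entered with at least 1 FPKM in 3 or more libraries (23355 genes), and p-values were adjusted by Benjamini-Hochberg over all of them. Of the 60 genes, 56 passed this filter. The fold change of a low gene is understated on this scale. Tables were handled with Python 3.11.15 and pandas 2.3.3, and figures drawn with matplotlib 3.10.9. The fit was tested on simulated data first. Peaks were joined to genes by identifier, and 1 base of overlap counted as shared.

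Read counts were not recovered from FPKM. In 566 single-exon genes, 25.4 to 38.1% of low values were whole multiples of a common step within 0.1, where chance gives 20%. Depth is therefore unknown, and no count test or counting interval was made. Named genes were the 10 largest called changes each way per comparison whose higher group averaged 5 FPKM or more, the 10 most abundant, those with 3 or more peaks, the 10 with the smallest changes among means of at least 10 FPKM, and genes with the same description. Genes named outside this rule, such as LOC_Os08g41540, LOC_Os11g28360, LOC_Os05g14300, LOC_Os06g09330, LOC_Os02g43760, LOC_Os10g11260 and the genes outside the set of 60, were chosen after their values were seen. Alternatives were other pseudocounts, no filter, equal library sums, quantile normalization, the 2 compared groups alone, a replicate block, each library left out, and stricter peak thresholds and overlap. No sequence is shown.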

Additional observations from a re-analysis of the deposited data

How the results depend on the processing

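For the 38 genes named by the rule, 1698 values recomputed under the alternatives kept their direction and their side of the threshold, 29 lost a call, 5 gained one and 35 turned direction. Over all 56 genes tested, 42 calls were lost and 9 gained. For counts of called genes, a pseudocount of 5 gave 3 lower in the flowering over the booting panicle, 6 higher in the flowering panicle over the flag leaf and 12 higher in the booting panicle over the flag leaf. Quantile normalization gave 4 and 10 higher in the 2 comparisons with the flag leaf. Leaving out 1 library in turn gave 2 to 4 genes higher in the flowering over the booting panicle. In the runs without 1 flowering panicle library LOC_Os01g60360 failed the filter and has no value. The other counts of called genes over the whole set, and the counts of genes with a peak, stayed within 1.5 times. By class, quantile normalization gave 3 E2s and 5 deubiquitinases higher in the booting panicle over the flag leaf, in place of 9 and 9, and 2 of each in the flowering panicle over the flag leaf, in place of 5 and 5. With a replicate block the counts were 4 higher and 5 lower in the flowering over the booting panicle, 11 and 2 in the flowering panicle over the flag leaf and 20 and 2 in the booting panicle over the flag leaf, as without it. The labels state no pairing of same-numbered libraries. Their deviations from the group means correlated at -0.189 to 0.118 and over 0.1 in 2 of 9 pairs. These values cannot show whether same-numbered libraries share a source.

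The genes that turned direction were not called in those comparisons under either setting, and the cause was not tested. With quantile normalization, the log2 change of the flowering panicle over the flag leaf was -0.068 for LOC_Os01g12950, -0.41 for LOC_Os02g36400, -0.21 for LOC_Os02g55180, -0.13 for LOC_Os03g06950, -0.36 for LOC_Os04g57190, -0.29 for LOC_Os08g37350, -0.27 for LOC_Os09g12230, -0.18 for LOC_Os09g12310 and -0.12 for LOC_Os11g36470. That of the booting panicle over the flag leaf was -0.19 for LOC_Os01g62244, -0.015 for LOC_Os03g06950, -0.28 for LOC_Os03g47770, -0.13 for LOC_Os04g57190, 0.022 for LOC_Os04g57220, -0.19 for LOC_Os08g37350, -0.28 for LOC_Os09g12230 and -0.065 for LOC_Os11g28365. That of the flowering over the booting panicle was -0.43 for LOC_Os01g46926 and 0.012 for LOC_Os09g12230. With equal library sums it was -0.11 for LOC_Os01g46926 and -0.12 for LOC_Os12g42600, and in the flowering panicle over the flag leaf -0.038 for LOC_Os02g36400 and -0.04 for LOC_Os08g37350. Leaving out 1 library gave, in the flowering over the booting panicle, -0.061 to 0.093 for LOC_Os01g46926, -0.11 to 0.061 for LOC_Os09g12230, -0.15 to 0.046 for LOC_Os09g12310 and -0.041 to 0.061 for LOC_Os12g42600. It gave -0.011 to 0.12 for LOC_Os02g36400 in the flowering panicle over the flag leaf and -0.66 to 0.24 for LOC_Os04g57220 in the booting panicle over the flag leaf. With a fold of at least 2, or an overlap of at least 50% of each peak, 46 genes held overlapping peaks in all lists. Read depth is unknown, so a value of 0 gives no limit on expression.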
